A study of Homo sapiens with 15 samples.

Results

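Mitotic genes are 41 genes, chosen by name, whose products take a cell into and through mitosis. All 41 were found among the 26439 gene rows of the deposited expression table and all 41 passed the filter on low values. They were followed across 5 groups of LNCaP, an established human prostate cancer cell line that responds to androgen, with 3 RNA sequencing libraries per group and 15 in all. Cells of 4 groups had been infected with a lentivirus for an shRNA against PALI1 (shPALI1), G9a (shG9a), JARID2 (shJarid2) or SUZ12 (shsuz12), and cells of the control group with the lentivirus pLKO, each for 4-5 days. The labels call every group wild type and give 1 hairpin name per target, so that effects of a hairpin and of the loss of its target cannot be told apart. SUZ12, JARID2 and PALI1 are proteins of the Polycomb repressive complex PRC2, and PALI1 is made from the LCOR locus. G9a is a histone H3 lysine 9 methyltransferase encoded by EHMT2.

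Entry into mitosis is driven by the kinase CDK1 with its cyclins, helped by PLK1 and the Aurora kinases. The kinetochore, built on centromeric chromatin, then attaches chromosomes to spindle microtubules, and the spindle checkpoint holds the cell back until every chromosome is attached. CDC20 next turns on the anaphase-promoting complex, which marks securin and cyclin B for destruction, so that chromosomes part and the cell divides. Transcripts of most of these genes are high in the late part of the cell cycle and low in resting cells. The DREAM and MuvB complexes, MYBL2 and FOXM1 control many of them. Promoters of such genes often hold elements such as the CHR and the CCAAT box, which need not be read by the same factors. In prostate cancer the level of these transcripts is widely used as a measure of proliferation.

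Values are RPKM, read numbers scaled by gene length and by the size of the library, as deposited. Depth worked out from steps in the values was 10.56 to 19.36 M reads per library, and 21.1 to 38.7 reads in a 2 kb gene made 1 RPKM. The targeted transcripts were at 23.8% of pLKO for C10orf12, the part of the LCOR locus that marks PALI1, in shPALI1, 25.7% for EHMT2 in shG9a, 18.3% for JARID2 in shJarid2 and 12.5% for SUZ12 in shsuz12. EHMT2 was also at 71.5% of pLKO in shJarid2 and 80.3% in shsuz12, and JARID2 at 141% in shsuz12. LCOR was at 60% in shPALI1 and 158% in shsuz12. These further changes passed the test used below, and the remaining changes of these genes did not. The luminal prostate markers KLK3, KLK2, FOLH1, HOXB13, KRT8 and KRT18 were present in every library, while CD3E was at 0 RPKM in all of them. The immune, endothelial, fibroblast and basal markers PTPRC, CD14, PECAM1, CDH5, DCN, TP63 and KRT5 did not exceed 0.232 RPKM in any library. Whole lists summed to at most 4.94 RPKM for 4 immune, 2.48 RPKM for 3 endothelial and 6.02 RPKM for 4 fibroblast markers, and the 3 basal markers to 3.41 to 4.86 RPKM in shJarid2, mostly KRT14, and at most 0.593 RPKM elsewhere; their part in the results was not tested. One library, shJarid2 replicate 3, stood apart from its group in long genes. The counts in shJarid2 against pLKO and the changes of MKI67, ASPM, CENPF and INCENP there are given with and without it. Changes of other long members, such as KIF11, TTK, ECT2 and BUB1B, are given only with it.

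Mitotic gene transcripts were lower in each knockdown than in pLKO, by a margin that differed between knockdowns. Summed over the 41 genes, the level was 759 ± 9.6 RPKM in shPALI1, 650.5 ± 33 RPKM in shG9a, 469.7 ± 17 RPKM in shJarid2 and 383.4 ± 18.1 RPKM in shsuz12, against 984.1 ± 52.1 RPKM in pLKO (SD, n = 3 each). These sums are 77.1%, 66.1%, 47.7% and 39% of pLKO. The ranges of no 2 groups overlapped, with 753.1 to 770.1 RPKM in shPALI1, 614.5 to 679.3 RPKM in shG9a, 457.1 to 489 RPKM in shJarid2, 363.4 to 398.5 RPKM in shsuz12 and 928.1 to 1031 RPKM in pLKO. In bulk RNA, fewer cells in mitosis and less mRNA per mitotic cell cannot be told apart. Other transcripts of the line moved with the groups too: these 6 luminal markers summed to 606.5 to 706.5 RPKM in shPALI1, 738.6 to 795.2 RPKM in shG9a, 1263 to 1599 RPKM in shJarid2 and 974.5 to 1067 RPKM in shsuz12, against 1562 to 1736 RPKM in pLKO. Their order over the groups differed from that of the mitotic genes, and their part in the result was not tested.

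**Figure D1:**
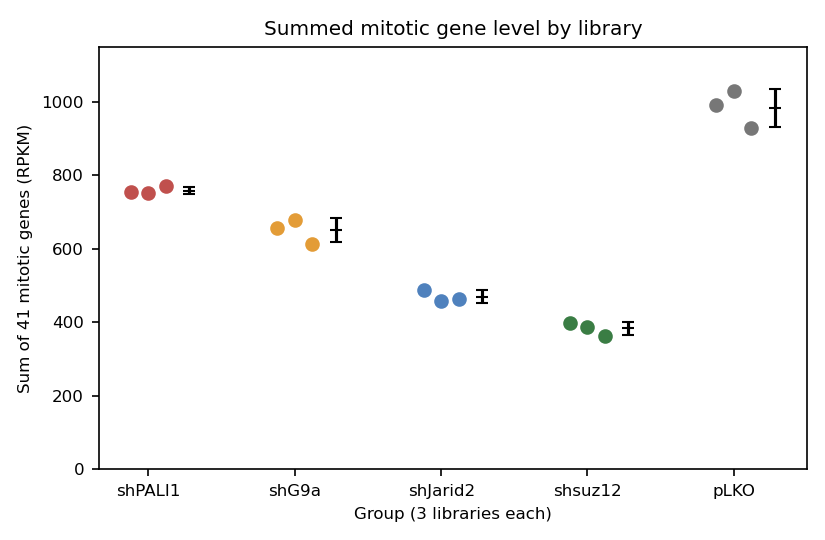
Summed RPKM of the 41 mitotic genes (y axis) in each of the 3 libraries of the 5 groups (x axis, knockdowns left of pLKO). Points are libraries and the black mark beside them the mean with its SD; the pLKO libraries lie between 928.1 and 1031 RPKM, above every knockdown library, and the shsuz12 libraries between 363.4 and 398.5 RPKM, below all others.

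In shPALI1, 24 of 41 members fell and 0 rose, where 25.1% of the 12711 genes tested fell and 16.5% rose. Their median log2 change was -0.355, against -0.052 over all genes tested. In shG9a, 34 members fell and 1 rose, where 24.7% and 18.4% of all genes did, with a median of -0.488 against -0.04. In shJarid2, 40 members fell and 0 rose, against 27.2% and 23.8% of all genes, with a median of -0.965 against -0.038. Without shJarid2 replicate 3, the count that fell was 41, where 29.7% of all genes fell. In shsuz12, 41 members fell, against 32.8% of all genes, with a median of -1.23 against -0.078. These counts come from limma on log2(RPKM + 1), with a Benjamini-Hochberg adjusted p under 0.05 over all genes tested, so a log2 change is somewhat smaller than the ratio of the RPKM values. The labels do not tie replicates to separate cultures, and so the p values measure only the spread between libraries, part of which may be technical. The 3 libraries of a knockdown were all below the 3 of pLKO for 26 members in shPALI1, where this held for 32.6% of all genes tested, and for 37 in shG9a (33.2%), 40 in shJarid2 (27.8%) and 41 in shsuz12 (38%). Without shJarid2 replicate 3 it held for 41 members in shJarid2 and 36.9% of all genes. All 4 comparisons share the pLKO libraries, and their counts are therefore set side by side and not combined.

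The level of a member in pLKO ran from 5.54 RPKM for CDC25C to 65.7 RPKM for CCNB1. By group means, 38 of the 41 members were highest in pLKO, 2 in shPALI1 and 1 in shG9a, and 29 were lowest in shsuz12, 11 in shJarid2 and 1, BIRC5, in shG9a. Without shJarid2 replicate 3 these tallies were 30, 10 and 1, since MKI67 and KIF23 were then lowest in shsuz12 and CDC20 in shJarid2. The members highest outside pLKO were TOP2A and KIF2C in shPALI1 and CDC25B in shG9a. Only the last of these differences passed the test.

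**Figure D2:**
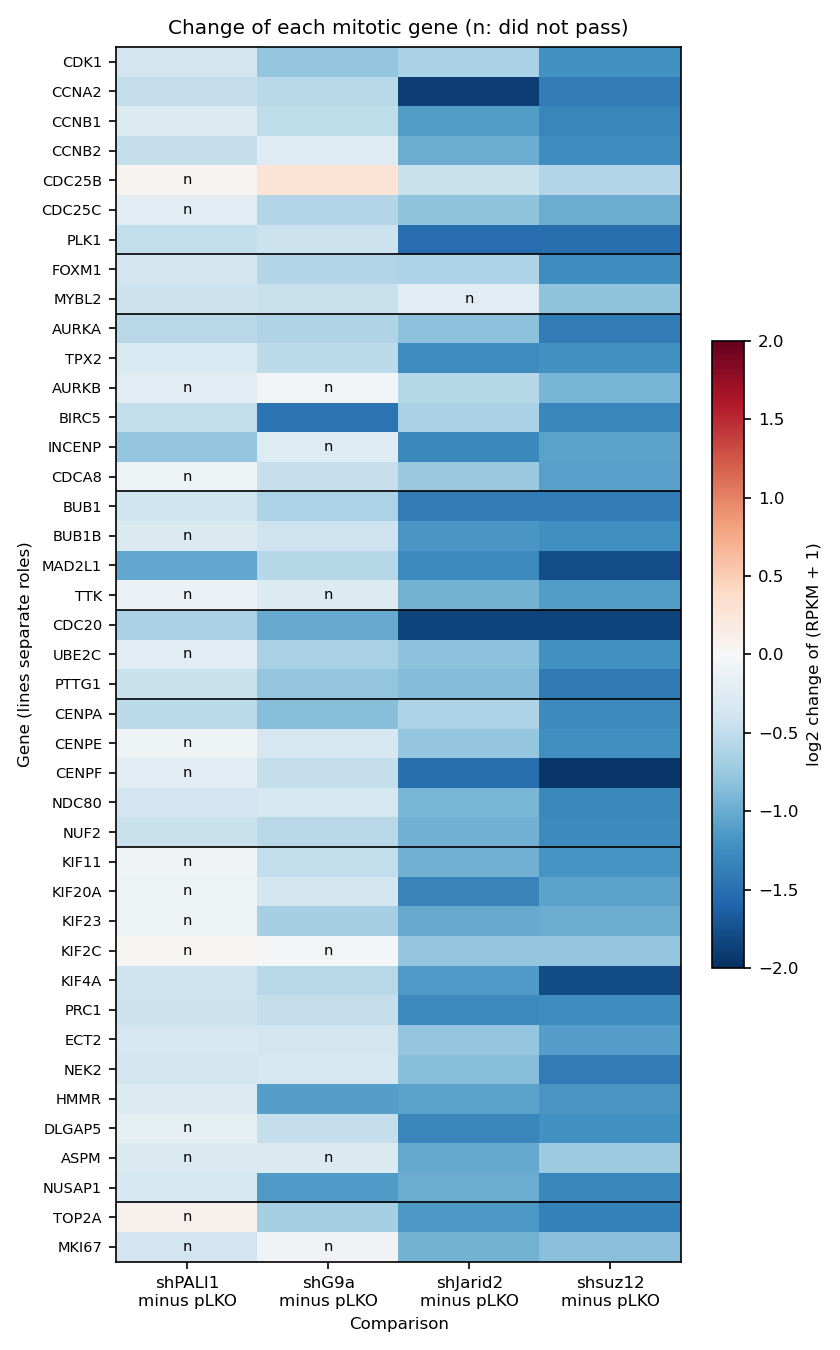
Log2 change of (RPKM + 1) from pLKO (colour, blue lower and red higher) for each of the 41 mitotic genes (y axis, lines separate roles) in the 4 knockdowns (x axis); n marks a change that did not pass at an adjusted p of 0.05. The shPALI1 column holds 17 such marks, the shG9a column 6, the shJarid2 column 1, at MYBL2, and the shsuz12 column 0.

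The bases near the start sites of the members were examined for 2 elements known from cell cycle genes, the CHR core TTTGAA and the CCAAT box. Each was read on both strands, in windows of 250 bases before to 50 bases after the start. For a gene with several annotated starts, the highest count of each element over its starts was used. The elements counted for a gene may thus come from different starts, and genes with more starts had more windows. Matches on the 2 strands that share bases were counted apart. The members were chosen by name as genes of this class. The shares below could therefore be foreseen, and they describe the set and not the knockdowns. RefSeq promoters (GRCh38.p14) were matched for 35 of the 41 members, and FOXM1, AURKA, TPX2, BIRC5, TTK and UBE2C had no entry. TTTGAA was present in 24 of the 35 (68.6%), against 18.2% of the 27305 genes with a promoter, expressed here or not. CCAAT was present in 29 (82.9%), against 39.7%. Both were present in 21 members (60.0%), against 8.4% of genes, and at least 2 CCAAT boxes in 20 members (57.1%), against 12.9%. The 100 bases before the start are shown for CDC20, PLK1, CCNB2, HMMR and KIF4A, picked by hand after the matches were seen as examples that hold both elements, with TTTGAA and CCAAT, or their reverse complements TTCAAA and ATTGG, in capitals. CCNA2, CCNB1 and CDC25B, at 1 of its annotated starts, were picked in the same way as members without TTTGAA. No other form of the CHR was searched for, so these members are not shown to lack one. Of these, CCNA2 and CCNB1 fell in the 4 knockdowns. CDC25B fell in shJarid2 and shsuz12, rose in shG9a and did not pass in shPALI1. In HMMR, a CCAAT and an ATTGG on the printed strand share their middle bases.
CDC20, chr1:43358881-43358980, plus strand: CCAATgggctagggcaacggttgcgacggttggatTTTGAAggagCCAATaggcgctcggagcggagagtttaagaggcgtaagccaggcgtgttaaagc
PLK1, chr16:23678789-23678888, plus strand: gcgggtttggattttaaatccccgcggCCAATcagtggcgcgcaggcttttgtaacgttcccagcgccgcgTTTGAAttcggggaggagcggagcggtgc
CCNB2, chr15:59105046-59105145, plus strand: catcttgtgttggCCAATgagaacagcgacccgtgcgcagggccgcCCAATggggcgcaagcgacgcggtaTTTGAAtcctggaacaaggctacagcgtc
HMMR, chr5:163460532-163460631, plus strand: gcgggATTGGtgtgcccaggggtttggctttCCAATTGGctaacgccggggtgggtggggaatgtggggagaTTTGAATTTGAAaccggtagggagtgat
KIF4A, chrX:70290004-70290103, plus strand: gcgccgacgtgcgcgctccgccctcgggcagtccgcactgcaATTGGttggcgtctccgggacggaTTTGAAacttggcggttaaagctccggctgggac
CCNA2, chr4:121823884-121823983, minus strand: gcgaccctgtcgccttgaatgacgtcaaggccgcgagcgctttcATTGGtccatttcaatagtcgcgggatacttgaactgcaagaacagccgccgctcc
CCNB1, chr5:69167050-69167149, plus strand: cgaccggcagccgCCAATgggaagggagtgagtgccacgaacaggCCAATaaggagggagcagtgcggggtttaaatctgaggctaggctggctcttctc
CDC25B, chr20:3796210-3796309, plus strand: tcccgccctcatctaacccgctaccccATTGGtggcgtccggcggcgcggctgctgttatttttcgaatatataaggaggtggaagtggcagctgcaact

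In CDC20 the TTTGAA lies between a pair of CCAAT boxes, and in HMMR it stands in direct repeat. In PLK1, CCNB2 and KIF4A the CCAAT box lies upstream of it. Among the matched members, those with TTTGAA had a median log2 change of -0.364 in shPALI1 (14 of 24 fell), -0.482 in shG9a (21 fell), -1.01 in shJarid2 (24 fell) and -1.24 in shsuz12 (24 fell). Those without it had medians of -0.266 (6 of 11 fell), -0.367 (8 fell and 1 rose), -0.846 (10 fell) and -1.22 (11 fell) in the same order. The ranges of the members with and without it overlapped in each knockdown, for example from -1.86 to -0.61 with it and from -1.89 to -0.21 without it in shJarid2. A match is a string of letters in a window and does not show that a factor binds there.

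Of the 7 entry kinases, cyclins and phosphatases, 5 fell in shPALI1, 6 fell and 1 rose in shG9a, and 7 fell in shJarid2 and in shsuz12. CDK1 is the kinase whose activity defines mitosis. CDK1 read 46.4, 40.8 and 45.2 RPKM in shPALI1 and 32.4, 33.5 and 33.2 RPKM in shG9a. The CDK1 values were 36.2, 36.03 and 36.4 RPKM in shJarid2 and 24.7, 25.3 and 22.96 RPKM in shsuz12, against 51.99, 63.7 and 56.8 RPKM in pLKO. The pLKO libraries were above every knockdown library, and the shsuz12 libraries were below all others. For CDK1, the log2 change from pLKO was -0.37 ± 0.074 (SE) in shPALI1, -0.78 ± 0.074 in shG9a, -0.65 ± 0.074 in shJarid2 and -1.20 ± 0.074 in shsuz12, with limma adjusted p = 0.0011, 1.9e-06, 6e-06 and 2e-08 in that order. CDK1 was at 57.4% of pLKO in shG9a and at 63.0% in shJarid2, and the difference between these knockdowns did not pass.

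Cyclin A2, encoded by CCNA2, works in S phase and at mitotic entry and had the largest change of any member in shJarid2 with replicate 3 included. CDC20 was close there, at -1.855. Replicate 3 differed from the mean of replicates 1 and 2 by 0.409 for CDC20 and by -0.014 for CCNA2. Without that library CDC20 therefore had a larger change than CCNA2. CCNA2 read 13.4, 13.8 and 13.7 RPKM in shPALI1 and 12.2, 14.9 and 11.7 RPKM in shG9a. The CCNA2 values were 5.01, 4.03 and 4.45 RPKM in shJarid2 and 7.46, 7.004 and 5.82 RPKM in shsuz12, against 19.4, 20.4 and 18.2 RPKM in pLKO. No shJarid2 library exceeded the lowest shsuz12 library, and shPALI1 and shG9a overlapped each other below pLKO. For CCNA2, the log2 change from pLKO was -0.47 ± 0.099 (SE) in shPALI1, -0.55 ± 0.099 in shG9a, -1.89 ± 0.099 in shJarid2 and -1.39 ± 0.099 in shsuz12, with limma adjusted p = 0.0018, 0.00053, 5e-09 and 7.2e-08 in that order. In shJarid2 the transcript was at 23.3% of pLKO.

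Cyclin B1, encoded by CCNB1, is the main partner of CDK1 in mitosis and was the most abundant member in pLKO. CCNB1 read 55.3, 54.3 and 53.7 RPKM in shPALI1 and 45.99, 48.1 and 43.98 RPKM in shG9a. The CCNB1 values were 29.5, 28.5 and 31.3 RPKM in shJarid2 and 27.3, 25.7 and 24.9 RPKM in shsuz12, against 67.6, 68.3 and 61.2 RPKM in pLKO. The 5 groups did not overlap, in the order pLKO, shPALI1, shG9a, shJarid2 and shsuz12. For CCNB1, the log2 change from pLKO was -0.27 ± 0.063 (SE) in shPALI1, -0.50 ± 0.063 in shG9a, -1.12 ± 0.063 in shJarid2 and -1.31 ± 0.063 in shsuz12, with limma adjusted p = 0.004, 2.3e-05, 9e-09 and 3.6e-09 in that order. Its sister cyclin CCNB2 changed by -0.47 in shPALI1, -0.26 in shG9a, -0.99 in shJarid2 and -1.25 in shsuz12. The CCNB2 fall in shG9a (adjusted p = 0.029) did not pass with TPM (0.218), with quantile normalization (0.108), with a correction for length and GC content (0.0609) or without pLKO replicate 1 or 2 or shG9a replicate 2 or 3.

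PLK1, the Polo-like kinase that acts from mitotic entry to cytokinesis, fell in the 4 knockdowns. PLK1 read 24.8, 25.1 and 24.7 RPKM in shPALI1 and 28.03, 27.4 and 23.2 RPKM in shG9a. The PLK1 values were 12.3, 11.1 and 11.9 RPKM in shJarid2 and 11.3, 12.2 and 12.01 RPKM in shsuz12, against 39.5, 35.1 and 32.5 RPKM in pLKO. The shJarid2 and shsuz12 libraries overlapped each other and lay below the rest, and the shPALI1 and shG9a libraries lay between them and pLKO. For PLK1, the log2 change from pLKO was -0.50 ± 0.081 (SE) in shPALI1, -0.43 ± 0.081 in shG9a, -1.52 ± 0.081 in shJarid2 and -1.51 ± 0.081 in shsuz12, with limma adjusted p = 0.00023, 0.00072, 5.4e-09 and 6.7e-09 in that order.

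The CDC25 phosphatases switch CDK1 on. CDC25B, which starts CDK1 activation, was the 1 member that rose in shG9a. CDC25B read 11.7, 12.2 and 12.3 RPKM in shPALI1 and 14.7, 14.3 and 13.4 RPKM in shG9a. The CDC25B values were 8.51, 8.29 and 7.73 RPKM in shJarid2 and 7.71, 7.55 and 6.89 RPKM in shsuz12, against 12.1, 11.4 and 11.1 RPKM in pLKO. The 3 shG9a libraries were above the 3 pLKO libraries, the shPALI1 libraries overlapped them, and the shJarid2 and shsuz12 libraries were below. For CDC25B, the log2 change from pLKO was 0.061 ± 0.063 (SE) in shPALI1, 0.27 ± 0.063 in shG9a, -0.45 ± 0.063 in shJarid2 and -0.58 ± 0.063 in shsuz12, with limma adjusted p = 0.46, 0.0034, 3.8e-05 and 3.5e-06 in that order. The shPALI1 change passed as a rise with quantile normalization (adjusted p = 0.0465) and with the length and GC correction (0.0203). CDC25C, which acts later in the same step, fell by 0.58 in shG9a, by 0.80 in shJarid2 and by 1.0 in shsuz12, and its change of -0.21 in shPALI1 did not pass (adjusted p = 0.18).

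**Figure D3:**
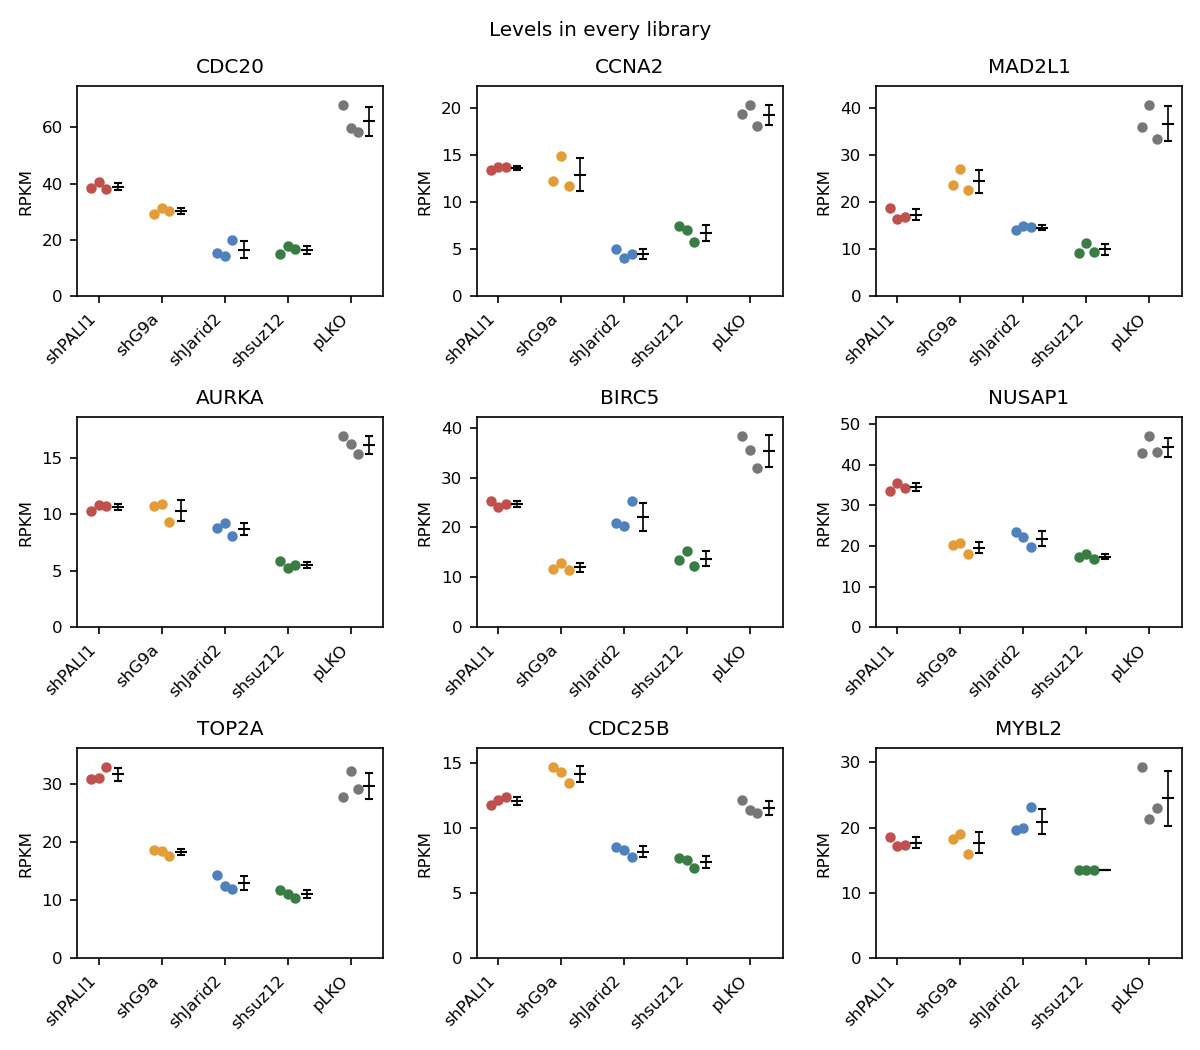
RPKM of 9 mitotic genes (y axes start at 0) in each library of the 5 groups (x axes, knockdowns left of pLKO), with group means and SDs in black. CDC20 lies at 14.4 to 20.0 RPKM in shJarid2 against 58.5 to 67.9 RPKM in pLKO, BIRC5 is lowest in shG9a, TOP2A in shPALI1 lies within or just above pLKO, and CDC25B is highest in shG9a.

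Both transcription factors of the set fell in shPALI1, shG9a and shsuz12. FOXM1 drives late cell cycle genes. FOXM1 read 18.6, 19.6 and 20.6 RPKM in shPALI1 and 18.1, 17.8 and 14.6 RPKM in shG9a. The FOXM1 values were 19.2, 15.6 and 14.8 RPKM in shJarid2 and 12.002, 9.44 and 9.42 RPKM in shsuz12, against 27.4, 25.2 and 24.5 RPKM in pLKO. Its pLKO libraries were above every knockdown library and its shsuz12 libraries below every other, while the shJarid2 libraries overlapped those of both shPALI1 and shG9a. For FOXM1, the log2 change from pLKO was -0.37 ± 0.112 (SE) in shPALI1, -0.58 ± 0.112 in shG9a, -0.61 ± 0.112 in shJarid2 and -1.25 ± 0.112 in shsuz12, with limma adjusted p = 0.016, 0.0008, 0.00038 and 5.7e-07 in that order. The shPALI1 call did not pass with TPM (adjusted p = 0.0615), with quantile normalization (0.0554), without pLKO replicate 1 (0.0604) or without shPALI1 replicate 1 (0.0563).

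MYBL2, the B-Myb factor that joins MuvB on promoters in S phase, was the 1 member that did not pass in shJarid2. MYBL2 read 18.6, 17.1 and 17.3 RPKM in shPALI1 and 18.2, 19.05 and 15.9 RPKM in shG9a. The MYBL2 values were 19.6, 19.98 and 23.1 RPKM in shJarid2 and 13.5, 13.4 and 13.5 RPKM in shsuz12, against 29.3, 21.3 and 22.99 RPKM in pLKO. In shJarid2 its libraries overlapped those of pLKO, in which replicate 1 was the highest. For MYBL2, the log2 change from pLKO was -0.43 ± 0.103 (SE) in shPALI1, -0.44 ± 0.103 in shG9a, -0.21 ± 0.103 in shJarid2 and -0.80 ± 0.103 in shsuz12, with limma adjusted p = 0.0039, 0.0035, 0.11 and 1.8e-05 in that order. The shJarid2 change passed as a fall without shJarid2 replicate 3 (adjusted p = 0.0376), without pLKO replicate 2 (0.0321), with TPM (0.036), with quantile normalization (0.0178) and with the length and GC correction (0.00313).

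Among the Aurora kinases and the chromosomal passenger complex, 4 of 6 members fell in shPALI1, 4 in shG9a and 6 in shJarid2 and in shsuz12. Aurora A, encoded by AURKA, organizes the spindle poles. AURKA read 10.3, 10.8 and 10.8 RPKM in shPALI1 and 10.7, 10.95 and 9.29 RPKM in shG9a. The AURKA values were 8.76, 9.21 and 8.10 RPKM in shJarid2 and 5.82, 5.23 and 5.48 RPKM in shsuz12, against 16.9, 16.2 and 15.3 RPKM in pLKO. The shPALI1 and shG9a libraries overlapped, below pLKO, and the shsuz12 libraries were the lowest. For AURKA, the log2 change from pLKO was -0.56 ± 0.072 (SE) in shPALI1, -0.60 ± 0.072 in shG9a, -0.82 ± 0.072 in shJarid2 and -1.40 ± 0.072 in shsuz12, with limma adjusted p = 3.1e-05, 1.6e-05, 4.8e-07 and 5.7e-09 in that order. TPX2, which activates Aurora A at the spindle, changed by -0.30 in shPALI1, -0.52 in shG9a, -1.26 in shJarid2 and -1.22 in shsuz12. Its fall in shPALI1 (adjusted p = 0.011) did not pass with quantile normalization (0.0716), without pLKO replicate 2 (0.0545) or without shPALI1 replicate 1 (0.0553).

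Survivin, encoded by BIRC5, is the passenger subunit that brings Aurora B to the centromere, and it had the largest change of any member in shG9a. BIRC5 read 25.3, 24.1 and 24.7 RPKM in shPALI1 and 11.6, 12.9 and 11.4 RPKM in shG9a. The BIRC5 values were 20.8, 20.3 and 25.3 RPKM in shJarid2 and 13.4, 15.3 and 12.3 RPKM in shsuz12, against 38.3, 35.6 and 31.9 RPKM in pLKO. The shG9a libraries reached at most 12.9 RPKM and overlapped only with shsuz12, while the shPALI1 and shJarid2 libraries overlapped each other at 20.3 to 25.3 RPKM. For BIRC5, the log2 change from pLKO was -0.49 ± 0.097 (SE) in shPALI1, -1.48 ± 0.097 in shG9a, -0.65 ± 0.097 in shJarid2 and -1.30 ± 0.097 in shsuz12, with limma adjusted p = 0.0011, 5.2e-08, 6.9e-05 and 1.1e-07 in that order. In shG9a it was at 34% of pLKO.

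The other passenger genes did not all pass in shPALI1 and shG9a. INCENP, the scaffold of the complex, fell by 0.77 in shPALI1, to 56.4% of pLKO, by 1.29 in shJarid2 (1.07 without replicate 3) and by 1.07 in shsuz12. In shG9a its change of -0.25 did not pass (adjusted p = 0.14), although its 3 libraries were below those of pLKO and it passed in a model of the 6 libraries alone (0.0197). Borealin, encoded by CDCA8, fell by 0.46 in shG9a, by 0.74 in shJarid2 and by 1.08 in shsuz12, and its change of -0.083 in shPALI1 did not pass (adjusted p = 0.4). Aurora B itself, encoded by AURKB, fell by 0.57 in shJarid2 and by 0.93 in shsuz12. AURKB was at 84.8% of pLKO in shPALI1 (adjusted p = 0.18) and at 95.1% in shG9a (adjusted p = 0.75), and its pLKO libraries were spread from 16.2 to 24.3 RPKM. Without pLKO replicate 3, the shPALI1 change of AURKB passed as a fall (adjusted p = 0.0239).

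Of the 4 spindle checkpoint genes, 2 fell in shPALI1, 3 in shG9a and 4 in shJarid2 and in shsuz12. MAD2L1 encodes MAD2, the checkpoint protein that holds CDC20 back, and had the largest change of any member in shPALI1. MAD2L1 read 18.8, 16.4 and 16.9 RPKM in shPALI1 and 23.7, 27.1 and 22.5 RPKM in shG9a. The MAD2L1 values were 13.99, 15.01 and 14.8 RPKM in shJarid2 and 9.24, 11.4 and 9.43 RPKM in shsuz12, against 36.1, 40.7 and 33.5 RPKM in pLKO. All of the knockdown libraries were below pLKO, and the shPALI1 libraries were also below those of shG9a. For MAD2L1, the log2 change from pLKO was -1.04 ± 0.094 (SE) in shPALI1, -0.57 ± 0.094 in shG9a, -1.27 ± 0.094 in shJarid2 and -1.78 ± 0.094 in shsuz12, with limma adjusted p = 1.2e-06, 0.00026, 9.7e-08 and 6.4e-09 in that order. It was at 47.3% of pLKO in shPALI1, against 66.5% in shG9a.

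The checkpoint kinase BUB1 changed by -0.40 in shPALI1, -0.64 in shG9a, -1.40 in shJarid2 and -1.40 in shsuz12, and each of these falls passed. BUB1B, which encodes the checkpoint protein BUBR1, fell by 0.42 in shG9a (adjusted p = 0.013), by 1.17 in shJarid2 and by 1.23 in shsuz12. The shG9a fall of BUB1B did not pass with TPM (0.128), without pLKO replicate 2 (0.0515) or without shG9a replicate 3 (0.052). In shPALI1 the BUB1B change of -0.29 did not pass (adjusted p = 0.068), but it passed in a model of the 6 libraries alone (0.0239), without pLKO replicate 3 (0.0392) and with the correction for length and GC (0.016). TTK, the MPS1 kinase that starts checkpoint signalling, fell by 0.94 in shJarid2 and by 1.12 in shsuz12. TTK was at 90.8% of pLKO in shPALI1 and at 79.9% in shG9a, and neither change passed; the shG9a change passed in a model of the 6 libraries alone (0.0311) and with the length and GC correction (0.0359).

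CDC20, UBE2C and PTTG1 act with the anaphase-promoting complex, and 2 of them fell in shPALI1 and 3 in each of the other knockdowns. CDC20 is the activator of the complex and the target of the checkpoint. CDC20 read 38.4, 40.5 and 37.95 RPKM in shPALI1 and 29.05, 31.3 and 30.1 RPKM in shG9a. The CDC20 values were 15.3, 14.4 and 20.01 RPKM in shJarid2 and 14.8, 17.7 and 16.7 RPKM in shsuz12, against 67.9, 59.8 and 58.5 RPKM in pLKO. The pLKO libraries were the highest, followed by shPALI1 and then shG9a without overlap, and the shJarid2 and shsuz12 libraries overlapped at the low end. For CDC20, the log2 change from pLKO was -0.66 ± 0.103 (SE) in shPALI1, -1.01 ± 0.103 in shG9a, -1.85 ± 0.103 in shJarid2 and -1.86 ± 0.103 in shsuz12, with limma adjusted p = 0.00018, 3.5e-06, 7.7e-09 and 8.5e-09 in that order. CDC20 was at 62.8% of pLKO in shPALI1, 48.6% in shG9a, 26.7% in shJarid2 and 26.5% in shsuz12.

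Securin, encoded by PTTG1, keeps separase inactive until anaphase and changed by -0.45 in shPALI1, -0.80 in shG9a, -0.87 in shJarid2 and -1.41 in shsuz12, each a fall that passed. UBE2C, the ubiquitin-conjugating enzyme of the complex, fell by 0.64 in shG9a, by 0.82 in shJarid2 and by 1.21 in shsuz12. In shPALI1 the UBE2C change of -0.23 did not pass (adjusted p = 0.1) but did so without pLKO replicate 3 (0.0266).

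Centromere and kinetochore members fell in 3 of 5 cases in shPALI1 and in 5 of 5 in each of the other knockdowns. CENPA, the histone variant that marks centromeres, changed by -0.52 in shPALI1, -0.85 in shG9a, -0.61 in shJarid2 and -1.27 in shsuz12. NDC80 and NUF2, partners in the complex that grips microtubules, changed by -0.39 and -0.45 in shPALI1, by -0.35 and -0.55 in shG9a, by -0.91 and -0.96 in shJarid2 and by -1.29 and -1.27 in shsuz12. These changes of CENPA, NDC80 and NUF2 all passed.

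CENPF, a large protein of the outer kinetochore, had the largest change of any member in shsuz12 on the log2(RPKM + 1) scale, with 6.99, 5.59 and 5.36 RPKM there against 23.7, 27.99 and 26.1 RPKM in pLKO. That is a log2 change of -1.95 ± 0.169 (SE, limma adjusted p = 4.2e-07), and the groups did not overlap. As a ratio of RPKM, CENPF was at 23.1% of pLKO and KIF4A lower, at 21.5%. In shJarid2 it read 11.0, 9.24 and 5.88 RPKM, with replicate 3 the lowest, a change of -1.51, or -1.28 without that library. Its fall of 0.48 in shG9a (adjusted p = 0.034) did not pass with TPM (0.198), without the filter on low values (0.0685), with median ratio scaling (0.0514), without pLKO replicate 2 or 3 or without any 1 of the shG9a libraries. In shPALI1 CENPF did not pass, with a change of -0.22 (adjusted p = 0.31) and overlapping groups. CENPE, a kinetochore motor, fell by 0.34 in shG9a, by 0.78 in shJarid2 and by 1.22 in shsuz12, and was at 93.4% of pLKO in shPALI1 (adjusted p = 0.48). The CENPE call in shG9a did not pass with TPM (0.174).

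Of the 12 genes for spindle motors, microtubule bundlers and cytokinesis, 6 fell in shPALI1, 10 in shG9a and 12 in shJarid2 and in shsuz12. PRC1, which bundles the microtubules of the midzone, was among the 4 members with the smallest p in shPALI1 and in shJarid2. PRC1 read 21.02, 19.3 and 20.2 RPKM in shPALI1 and 20.4, 20.3 and 18.2 RPKM in shG9a. The PRC1 values were 11.2, 10.8 and 10.4 RPKM in shJarid2 and 11.6, 11.4 and 10.2 RPKM in shsuz12, against 26.5, 28.8 and 27.5 RPKM in pLKO. The pLKO libraries were the highest, shPALI1 and shG9a overlapped, and shJarid2 and shsuz12 overlapped at a lower level. For PRC1, the log2 change from pLKO was -0.43 ± 0.068 (SE) in shPALI1, -0.47 ± 0.068 in shG9a, -1.28 ± 0.068 in shJarid2 and -1.24 ± 0.068 in shsuz12, with limma adjusted p = 0.00017, 7.8e-05, 5.2e-09 and 7e-09 in that order.

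KIF4A, the chromokinesin that works with PRC1, was at 21.5% of pLKO in shsuz12. KIF4A read 7.01, 7.19 and 6.23 RPKM in shPALI1 and 6.005, 6.14 and 6.08 RPKM in shG9a. The KIF4A values were 4.20, 3.94 and 3.23 RPKM in shJarid2 and 2.39, 1.86 and 1.84 RPKM in shsuz12, against 8.88, 10.4 and 9.07 RPKM in pLKO. The shsuz12 libraries were below every other library, and those of shJarid2 were next. For KIF4A, the log2 change from pLKO was -0.42 ± 0.095 (SE) in shPALI1, -0.56 ± 0.095 in shG9a, -1.13 ± 0.095 in shJarid2 and -1.79 ± 0.095 in shsuz12, with limma adjusted p = 0.0029, 0.00032, 3.2e-07 and 6.4e-09 in that order.

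NUSAP1, a microtubule-associated protein of the spindle, had the smallest p of any member in shG9a. NUSAP1 read 33.6, 35.5 and 34.2 RPKM in shPALI1 and 20.1, 20.7 and 17.99 RPKM in shG9a. The NUSAP1 values were 23.5, 22.2 and 19.8 RPKM in shJarid2 and 17.3, 17.99 and 16.7 RPKM in shsuz12, against 42.8, 47.1 and 43.2 RPKM in pLKO. The pLKO and then the shPALI1 libraries were the highest, without overlap, and the shG9a and shJarid2 libraries overlapped each other. For NUSAP1, the log2 change from pLKO was -0.35 ± 0.073 (SE) in shPALI1, -1.14 ± 0.073 in shG9a, -0.99 ± 0.073 in shJarid2 and -1.31 ± 0.073 in shsuz12, with limma adjusted p = 0.0015, 4.1e-08, 9.1e-08 and 8.9e-09 in that order.

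HMMR, a spindle protein also known as RHAMM, had the third smallest p in shG9a. HMMR read 26.5, 24.02 and 24.7 RPKM in shPALI1 and 12.9, 14.2 and 13.8 RPKM in shG9a. The HMMR values were 14.8, 12.9 and 14.5 RPKM in shJarid2 and 14.7, 13.02 and 11.6 RPKM in shsuz12, against 27.7, 35.6 and 28.7 RPKM in pLKO. The shPALI1 libraries lay well above those of the other knockdowns, which overlapped each other, and just below those of pLKO. For HMMR, the log2 change from pLKO was -0.28 ± 0.098 (SE) in shPALI1, -1.11 ± 0.098 in shG9a, -1.07 ± 0.098 in shJarid2 and -1.17 ± 0.098 in shsuz12, with limma adjusted p = 0.037, 9.8e-07, 7.6e-07 and 3.3e-07 in that order. The shPALI1 call did not pass without the filter on low values (adjusted p = 0.0569), with median ratio scaling (0.0569), with TPM (0.0721) or with quantile normalization (0.145). Nor did it pass in a model of the 6 libraries alone (0.055) or with a replicate block (0.0522). It was also lost without pLKO replicate 2 (0.177), shPALI1 replicate 2 (0.11) or shPALI1 replicate 3 (0.0892).

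The motors KIF11, KIF20A, KIF23 and KIF2C did not pass in shPALI1, where KIF11 was at 94.5%, KIF20A at 92.4% and KIF23 at 91.8% of pLKO and the log2 change of KIF2C was 0.02. KIF11, which pushes the spindle poles apart, changed by -0.49 in shG9a, -0.97 in shJarid2 and -1.18 in shsuz12. KIF20A and KIF23, motors of cytokinesis, changed by -0.37 and -0.67 in shG9a, by -1.33 and -1.005 in shJarid2 and by -1.08 and -0.99 in shsuz12, and these changes passed. The calls of KIF11 and KIF20A in shG9a did not pass with TPM (adjusted p = 0.0875 and 0.146). KIF2C, a microtubule depolymerase, was at 97.1% of pLKO in shG9a (adjusted p = 0.79) and fell by 0.80 in shJarid2 and by 0.77 in shsuz12. The sign of the small KIF2C change in shG9a turned with TPM, with quantile normalization, without pLKO replicate 1 and without shG9a replicate 3, and that in shPALI1 without pLKO replicate 3 and without shPALI1 replicate 1.

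ECT2, which activates RhoA for cytokinesis, fell by 0.33 in shPALI1, by 0.37 in shG9a, by 0.78 in shJarid2 and by 1.11 in shsuz12. The ECT2 call in shPALI1 (adjusted p = 0.03) did not pass without the filter (0.0524), with median ratio scaling (0.053), with TPM (0.128), with quantile normalization (0.0693), or without pLKO replicate 2 (0.119), shPALI1 replicate 1 (0.0952) or shPALI1 replicate 3 (0.0623). The call in shG9a did not pass with TPM (0.194) or without pLKO replicate 2 (0.0759). NEK2, a centrosome kinase, changed by -0.38 in shPALI1, -0.34 in shG9a, -0.85 in shJarid2 and -1.40 in shsuz12, and its shG9a call did not pass with TPM (0.106). DLGAP5, a spindle assembly factor, fell by 0.47 in shG9a, by 1.31 in shJarid2 and by 1.22 in shsuz12, while its change of -0.19 in shPALI1 passed only with the length and GC correction (0.014). ASPM, a spindle pole protein, fell by 1.02 in shJarid2 (0.76 without replicate 3) and by 0.72 in shsuz12. In shPALI1 and shG9a ASPM was at 78.9% and 78.4% of pLKO and did not pass, except with the length and GC correction in shPALI1 (0.0227).

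TOP2A and MKI67 act on chromosome structure. TOP2A encodes topoisomerase II alpha, which untangles sister chromatids. TOP2A read 30.98, 31.2 and 32.95 RPKM in shPALI1 and 18.7, 18.5 and 17.7 RPKM in shG9a. The TOP2A values were 14.3, 12.4 and 11.98 RPKM in shJarid2 and 11.8, 10.99 and 10.3 RPKM in shsuz12, against 27.7, 32.2 and 29.2 RPKM in pLKO. In shPALI1 the libraries overlapped those of pLKO, and the libraries of the other knockdowns were lower, in 3 ranges that did not overlap. For TOP2A, the log2 change from pLKO was 0.092 ± 0.076 (SE) in shPALI1, -0.67 ± 0.076 in shG9a, -1.14 ± 0.076 in shJarid2 and -1.35 ± 0.076 in shsuz12, with limma adjusted p = 0.35, 9.6e-06, 3.6e-08 and 9.3e-09 in that order. It was at 107.0% of pLKO in shPALI1, a change that did not pass, and at 61.6% in shG9a, 43.5% in shJarid2 and 37.1% in shsuz12.

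MKI67 encodes Ki-67, the coat of mitotic chromosomes and a common marker of proliferation. MKI67 read 9.10, 12.5 and 13.9 RPKM in shPALI1 and 15.2, 15.2 and 14.03 RPKM in shG9a. The MKI67 values were 10.3, 8.52 and 4.92 RPKM in shJarid2 and 9.56, 7.57 and 7.96 RPKM in shsuz12, against 14.7, 15.3 and 16.9 RPKM in pLKO. The 3 shPALI1 libraries were below pLKO but spread widely, those of shG9a overlapped pLKO, and shJarid2 replicate 3 was the lowest library of all. For MKI67, the log2 change from pLKO was -0.39 ± 0.191 (SE) in shPALI1, -0.070 ± 0.191 in shG9a, -0.95 ± 0.191 in shJarid2 and -0.83 ± 0.191 in shsuz12, with limma adjusted p = 0.12, 0.8, 0.00087 and 0.0022 in that order. In shPALI1 the change passed with the length and GC correction (adjusted p = 0.00343). In shG9a its sign turned with TPM. In shJarid2 it was -0.68 without replicate 3 (adjusted p = 0.00103).

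Contrasts between knockdowns compare the levels of 2 knockdowns directly, but their spread was estimated over all 15 libraries, those of pLKO included. Between shPALI1 and shG9a, 19 of 41 members were higher in shPALI1 and 3 were lower, where 24.1% of all genes tested were higher and 24.1% lower. The higher ones were led by NUSAP1 (0.78 ± 0.073, adjusted p = 8.5e-07) and BIRC5 (0.99 ± 0.097, adjusted p = 1.4e-06), whose groups did not overlap, and the lower ones were MAD2L1 (-0.47), INCENP (-0.52) and CDC25B (-0.21). With TPM the count of higher members was 10, and without shPALI1 replicate 3 it was 11. The CDC25B call did not pass with the length and GC correction, without shPALI1 replicate 1 or without shG9a replicate 1.

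Against shJarid2, 37 members were higher in shPALI1 and 0 lower, where 30.5% and 31.8% of all genes were, and without shJarid2 replicate 3 the count of higher members was 36. TOP2A (1.24 ± 0.076, adjusted p = 6.5e-09) and CCNA2 (1.42 ± 0.099, adjusted p = 2.4e-08) had the smallest p. FOXM1, MYBL2, BIRC5 and CENPA did not pass in this contrast. Against shsuz12, 38 members were higher in shPALI1 and 0 lower, where 30.9% and 25% of all genes were. TOP2A (1.44 ± 0.076, adjusted p = 2.7e-09) and CCNB1 (1.04 ± 0.063, adjusted p = 1e-08) led, and INCENP, ASPM and MKI67 did not pass. With the 6 libraries of this contrast alone, 41 members were higher.

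Between shG9a and shJarid2, 31 members were higher in shG9a and 1, BIRC5, was lower (-0.83 ± 0.097, adjusted p = 6.7e-06), where 27.2% and 28.6% of all genes were. Without shJarid2 replicate 2, without shJarid2 replicate 3, with median ratio scaling or with the length and GC correction, the count of lower members was 2. CCNA2 (1.34 ± 0.099, adjusted p = 7.9e-08) and PLK1 (1.09 ± 0.081, adjusted p = 8.1e-08) had the smallest p among the higher ones. Against shsuz12, 37 members were higher in shG9a and 0 lower, where 25.8% and 19.8% of all genes were. CDC25B (0.85 ± 0.063, adjusted p = 1.2e-07) and PLK1 (1.08 ± 0.081, adjusted p = 1.4e-07) led, and ASPM, NUSAP1, BIRC5 and HMMR did not pass.

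Between shsuz12 and shJarid2, 22 members were lower in shsuz12 and 2 were higher, where 33.8% of all genes were lower and 25.2% higher. The median change of the members was -0.22. AURKA (-0.57 ± 0.072, adjusted p = 1.2e-05) and CDK1 (-0.56 ± 0.074, adjusted p = 1.9e-05) had the smallest p, with groups that did not overlap. CCNA2 (0.49 ± 0.099, adjusted p = 0.00068) and KIF20A (0.26 ± 0.094, adjusted p = 0.03) were higher in shsuz12. The KIF20A call was lost without shJarid2 replicate 3, without shsuz12 replicate 1, without shsuz12 replicate 2 or with the 6 libraries alone, and then 1 member was higher. Without shJarid2 replicate 1 or 2, 3 members were higher. With TPM, 14 members were lower, with the 6 libraries alone 16, and without single libraries 15 to 22. CDC20, PLK1, BUB1 and PRC1 did not pass in this contrast.

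Members whose libraries did not overlap between 2 knockdowns numbered 23 higher and 4 lower in shPALI1 against shG9a (31.6% and 32% of all genes), 36 and 1 in shPALI1 against shJarid2 (30.7% and 31.9%) and 40 and 0 in shPALI1 against shsuz12 (36.5% and 30%). They numbered 31 and 3 in shG9a against shJarid2 (29.1% and 30%) and 38 and 0 in shG9a against shsuz12 (34.8% and 27.3%). In shsuz12 against shJarid2, 1 was higher (26.3% of all genes) and 21 were lower (34.5%), the 1 being CCNA2.

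An earlier search of these data found the word TTTAACA to be frequent in the 3′ UTRs of genes that fell in shG9a. Short words of this kind are looked for because a hairpin can pair with other transcripts by its seed, and the members that hold it are given apart. It was present in 7 of the 41 members (17.1%), against 22% of all genes tested with an annotated 3′ UTR. The sites are shown because the member with the largest shG9a change, BIRC5, and the one with the smallest p, NUSAP1, are among them. The word is in capitals, positions are those of the word on GRCh38 and the bases are read 5′ to 3′ on the strand of the gene.
BIRC5, chr17:78224139-78224145, plus strand: tcctctactgTTTAACAacatggcttt
NUSAP1, chr15:41380193-41380199, plus strand: taatttTTTAACAtcttgtaaat
CDK1, chr10:60794841-60794847, plus strand: aattaaactgTTTAACAaataa
PTTG1, chr5:160428731-160428737, plus strand: taaagcattcTTTAACAgattctt
CENPA, chr2:26794452-26794458, plus strand: acttggagaaTTTAACAttttactctt
KIF11, chr10:92654640-92654646, plus strand: ctagaaatctTTTAACAcctttttagt
NEK2, chr1:211662841-211662847, minus strand: tttttttctgTTTAACAgaatatgagc

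In shG9a, the 7 members with the word had a median log2 change of -0.795, and 7 of them fell. Of the 34 without it, 27 fell and 1 rose, with a median of -0.472. In the other knockdowns the medians with and without the word were -0.375 and -0.298 in shPALI1, -0.846 and -1.01 in shJarid2 and -1.30 and -1.22 in shsuz12. HMMR and CDC20, which fell by more than 1 in shG9a, do not hold it. Over all genes tested, the median shG9a change was -0.132 with the word and -0.031 without. The word was picked from these same libraries for its frequency in genes that fell in shG9a. Lower shG9a medians with it are therefore in part built in. GAGGATA, the word found in the same way for shPALI1, is in 0 members and in 8.24% of all genes. The part of such words in the changes was not tested.

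**Figure D4:**
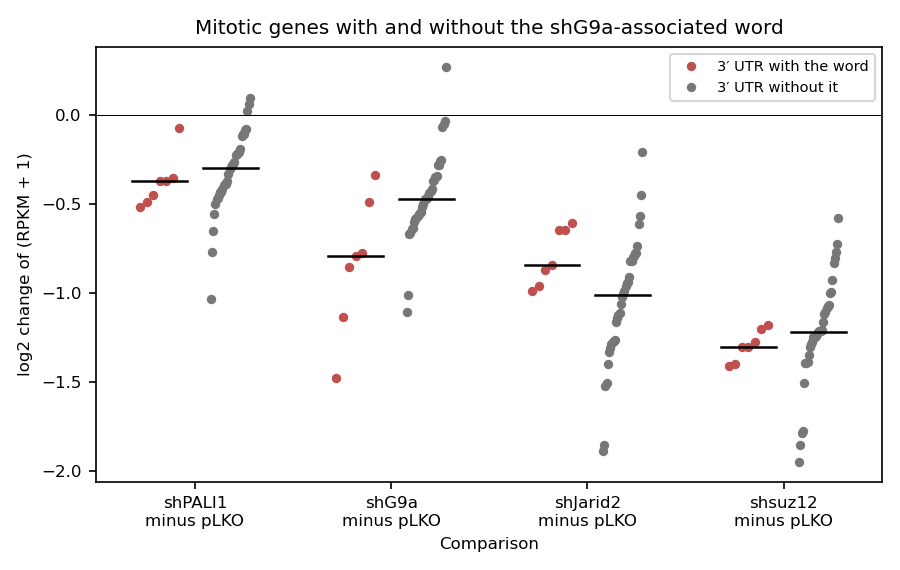
Log2 change of (RPKM + 1) from pLKO (y axis) of the 7 mitotic genes with TTTAACA in the 3′ UTR (red) and the 34 without it (grey), in each knockdown (x axis); points are genes and black lines medians. In shG9a the medians are -0.795 with the word and -0.472 without, and in shJarid2 -0.846 and -1.01.

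Other genes of the same machinery were read from lists of kinetochore, spindle, checkpoint, anaphase-promoting complex, condensin and cohesin, DREAM, replication and CDK inhibitor genes. Their counts are to be read against the share of all genes tested that fell, 25.1% in shPALI1, 24.7% in shG9a, 27.2% in shJarid2 and 32.8% in shsuz12, and that rose, 16.5%, 18.4%, 23.8% and 21.1%. Of 29 other kinetochore and centromere genes, 12 fell and 2 rose in shPALI1, 17 and 1 in shG9a, 18 and 2 in shJarid2 and 25 and 0 in shsuz12, so that the falls were 41.4%, 58.6%, 62.1% and 86.2% of the list. CENPN, a reader of centromeric chromatin, changed by -1.69 in shPALI1, -1.07 in shG9a and -1.03 in shsuz12, and it rose by 0.49 in shJarid2. SGOL2, which protects centromeric cohesion, changed by -0.50 in shPALI1, by -1.18 in shJarid2 and by -1.87 in shsuz12, and the kinetochore gene ZWINT by -0.81 in shG9a and -1.04 in shJarid2. Of 24 other spindle and cytokinesis genes, 13 fell and 1 rose in shPALI1, 18 and 1 in shG9a, 21 and 0 in shJarid2 and 23 and 0 in shsuz12. SPAG5, which encodes astrin of the spindle, changed by -0.61 in shPALI1, -0.83 in shG9a, -1.05 in shJarid2 and -1.30 in shsuz12. TACC3 changed by -0.84 in shPALI1, FAM64A by -1.11 in shG9a, RACGAP1, of the cytokinesis complex centralspindlin, by -1.01 in shJarid2 and CEP55, an abscission factor, by -1.84 in shsuz12.

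Of 21 further checkpoint and control genes, 13 fell and 1 rose in shPALI1, 11 and 2 in shG9a, 16 and 0 in shJarid2 and 17 and 0 in shsuz12. TRIP13, which recycles MAD2, changed by -0.76 and cyclin F, encoded by CCNF, by -0.69 in shPALI1. KPNA2 changed by -0.71 in shG9a, -1.10 in shJarid2 and -1.56 in shsuz12, the checkpoint gene BUB3 by -0.66 in shG9a and -1.06 in shJarid2, and MELK by -1.20 in shsuz12. Of 16 condensin and cohesin genes, 5 fell and 1 rose in shPALI1, 9 and 0 in shG9a, 11 and 0 in shJarid2 and 12 and 0 in shsuz12. In shPALI1 this is 31.2% of the list, near the share of all genes, and in the others 56.2%, 68.8% and 75%. The condensin gene NCAPH changed by -0.54 in shPALI1, -0.94 in shJarid2 and -1.33 in shsuz12, NCAPG2 by -0.53 in shPALI1 and -1.60 in shJarid2, SMC4 by -0.62 in shG9a and -1.28 in shsuz12 and SMC2 by -0.86 in shG9a.

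Of 15 genes for subunits of the anaphase-promoting complex and its activator FZR1, 5 fell and 1 rose in shPALI1, 4 and 0 in shG9a, 8 and 3 in shJarid2 and 9 and 0 in shsuz12. The falls were 33.3% of the list in shPALI1 and 26.7% in shG9a, near the shares of all genes, and 53.3% in shJarid2 and 60.0% in shsuz12. Their median log2 changes were -0.068, -0.109, -0.234 and -0.263 in that order. The subunit ANAPC2 changed by -0.70 and ANAPC16 by -0.66 in shPALI1 (ANAPC16 rose by 0.30 in shJarid2), ANAPC13 by -1.09 and CDC27 by -0.67 in shG9a, ANAPC7 by -0.49 and ANAPC13 by -0.54 in shJarid2, and ANAPC7 and CDC16 by -0.53 each in shsuz12.

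Of 12 DREAM, MuvB and pocket protein genes, which repress or switch on the mitotic genes, 4 fell and 2 rose in shPALI1, 4 and 0 in shG9a, 4 and 1 in shJarid2 and 7 and 0 in shsuz12. The falls were 33.3% of the list in shPALI1, shG9a and shJarid2, near the shares of all genes, and 58.3% in shsuz12. RBL2, the p130 pocket protein of DREAM, was at 42.9 ± 9.3 RPKM in shJarid2 against 18.9 ± 1.1 RPKM in pLKO (SD, n = 3 each). That is a rise of 1.12 ± 0.119 (SE, limma adjusted p = 3e-06), given only with shJarid2 replicate 3. The SE uses the spread over all 15 libraries and does not show the wider spread in shJarid2. At 13.1 RPKM in shPALI1, RBL2 fell by 0.49 (adjusted p = 0.0043). RBBP4, a histone chaperone shared by MuvB and PRC2, changed by -0.998 in shJarid2 and by 0.44 in shPALI1, where TFDP2 changed by 0.41. E2F5 changed by -1.19 and TFDP1 by -0.80 in shG9a, and LIN9 by -0.70 and E2F5 by -0.65 in shsuz12.

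Of 32 DNA replication genes, 19 fell and 2 rose in shPALI1, 20 and 3 in shG9a, 30 and 0 in shJarid2 and 31 and 0 in shsuz12, with medians of -0.268, -0.354, -0.547 and -0.891. TYMS, which makes thymidylate, changed by -1.44 in shG9a, -1.06 in shJarid2 and -1.61 in shsuz12, and the helicase genes MCM6 by -0.58 in shPALI1, MCM2 by -0.64 in shG9a and -0.90 in shJarid2 and MCM4 by -1.22 in shsuz12. E2F2 changed by -0.79 in shPALI1 and by 0.27 in shG9a. Of 7 CDK inhibitor genes, 6 passed the filter, and 3 fell and 1 rose in shPALI1, 4 and 0 in shG9a, 3 and 1 in shJarid2 and 5 and 0 in shsuz12. With 6 genes, 1 gene is 16.7% of this list, and the falls were 50%, 66.7%, 50% and 83.3%. CDKN1A, which encodes p21, changed by -0.57 in shPALI1 and -0.89 in shG9a, and at 161 RPKM in shJarid2 and 187 RPKM in shsuz12, against 186 RPKM in pLKO, it did not pass there. CDKN2A, which encodes p16 and ARF, was the 1 that rose in shPALI1, by 0.76, and it changed by -1.20 in shG9a and -0.82 in shJarid2, CDKN2C by -1.10 in shG9a and -1.24 in shsuz12, CDKN2D by -0.69 in shPALI1 and -0.92 in shsuz12, and CDKN1C by -0.64 in shJarid2. The other passing changes of this list were -0.56 for CDKN2A in shsuz12, -0.70 for CDKN2C in shPALI1 and -0.47 for CDKN2D in shJarid2. CDKN1C, at only 1.2 RPKM in pLKO, also changed by -0.45 in shG9a and -0.62 in shsuz12. CDKN1B changed by 0.22 in shJarid2 and by -0.30 in shsuz12. Changes named from these lists passed in limma unless stated otherwise. Without shJarid2 replicate 3 the shJarid2 counts lower and higher were 20 and 2 for kinetochore, 21 and 0 for spindle, 16 and 0 for checkpoint, 11 and 2 for condensin and cohesin, 10 and 1 for anaphase-promoting complex, 4 and 2 for DREAM, 30 and 0 for replication and 4 and 0 for CDK inhibitor genes.

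The length of a transcript moved with the values of shJarid2 replicate 3. Over the 14 members with the shortest longest transcript, 914 to 2409 bases, the median difference of this library from the mean of replicates 1 and 2 was 0.066 on the log2 scale. Over the 13 in the middle it was -0.014, and over the 14 longest, 3723 to 12678 bases, it was -0.445. It was -0.811 for MKI67, -0.785 for ASPM and -0.689 for CENPF, against 0.409 for CDC20. Spearman's rho with length was -0.76 over the 41 members and -0.69 over 10955 genes, as a description of 1 library. The part of length in these differences was not tested, and the count of members that fell in shJarid2, 40 with this library, was 41 without it.

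**Figure D5:**
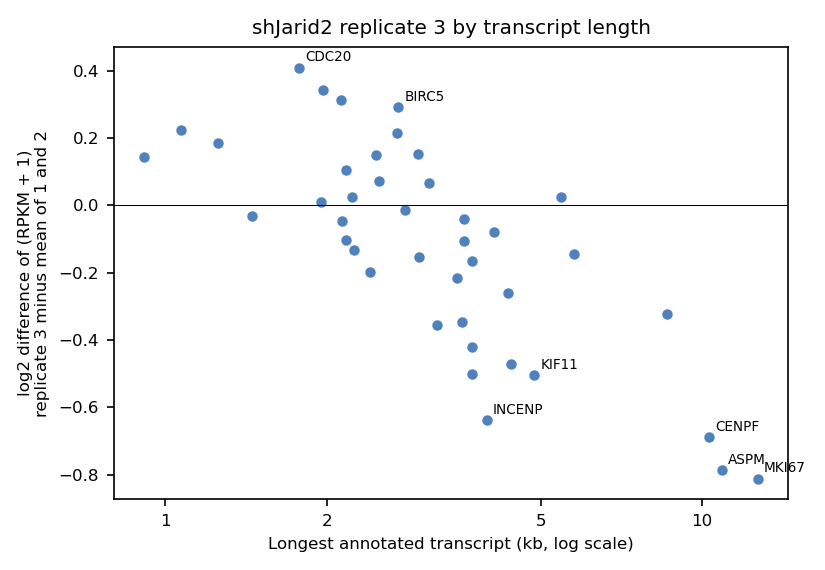
Difference of shJarid2 replicate 3 from the mean of replicates 1 and 2 on the log2(RPKM + 1) scale (y axis) against the longest annotated transcript in kb (x axis, log scale) for the 41 mitotic genes, one point per gene. The long genes MKI67, ASPM and CENPF lie at -0.811, -0.785 and -0.689, and the short gene CDC20 at 0.409.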

How the data were processed

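RNA sequencing of LNCaP cells had given 15 libraries in 5 groups of 3. The authors deposited a single table of RPKM values, in which each library has its column. The aligner STAR and the build hg38 are named, per the submitters' processing notes; the STAR version, the counter and the annotation were not given in the sources used here. Depth was read from the steps of the values in 2295 short RNA genes, where 92.7% to 94.8% of values under 50 reads lay within 0.05 of a whole read, a check that is in part circular. Only limits on precision from depth follow from it, since the values are not counts and no count test was run.

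Groups were compared with limma 3.58.1 in R 4.3.3: log2(RPKM + 1), genes with at least 1 RPKM in at least 3 libraries (12711), 1 model with group as its term over 15 libraries, a mean-variance trend, a two-sided moderated test and Benjamini-Hochberg adjustment over all genes within a comparison. The procedure was tested on simulated data, but no result of that test is given here, so it adds nothing to the calls. The members, the other lists and the words were chosen with earlier results of these data known. Every library's values are given for the 4 members with the smallest p in each comparison with pLKO and the 2 in each contrast of knockdowns. They are also given for FOXM1, MYBL2, MKI67 and CDK1. Other lists give 2 genes per comparison, and the CDK inhibitor list every change that passed. CDKN2A and CDKN2C tied in shG9a, and both are named. CENPF, INCENP and the genes given as not passing were singled out after their values were seen.

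Gene lengths and 3′ UTRs came from GENCODE v29 on GRCh38 and promoters from RefSeq on GRCh38.p14. The promoters printed were picked by hand. Replicate numbers were not treated as pairs. Some marker genes are not reported here, and the marker sums leave them out. The alternatives tried comprised no filter, a mean of at least 3 RPKM, pseudocounts of 0.1 and 0.5, median ratio scaling, TPM, quantile normalization, the 6 libraries of a comparison alone, a replicate block and each library left out. A correction for transcript length and GC content, counts without members that hold TTTAACA, and counts of the other lists without shJarid2 replicate 3, were added after seeing the data. Tables and figures were made with Python 3.11.15, pandas 2.3.3 and matplotlib 3.10.9.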

Additional observations from a re-analysis of the deposited data

How the results depend on the processing

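Against pLKO, leaving out single libraries gave 21 to 27 members that fell in shPALI1, 30 to 33 in shG9a, 40 to 41 in shJarid2 and 41 in shsuz12, and the other settings gave 20 to 28, 26 to 36, 40 to 41 and 41. With the replicate block the counts that fell were 23, 34, 40 and 41, and HMMR in shPALI1 did not pass (adjusted p = 0.0522). Correlations of same-numbered libraries were -0.27 to 0.3, with 2 of 3 above 0.1 in 3 comparisons and all 3 in none, so the numbers were not used as pairs; whether they mark a shared batch is not settled. In shPALI1, 1 member rose with quantile normalization and 1 with the length and GC correction, in place of 0. Members higher in shPALI1 than in shG9a numbered 10 with TPM and 11 to 16 without single libraries, in place of 19. Those lower in shPALI1 than in shJarid2 numbered 1 with median ratio scaling, in place of 0. Those lower in shG9a than in shJarid2 numbered 2 with median ratio scaling and with the length and GC correction, and 1 to 2 without single libraries. Those lower in shG9a than in shsuz12 numbered 1 with TPM and with quantile normalization, in place of 0. Between shsuz12 and shJarid2, 14 were lower with TPM (15 to 22 without single libraries), and 1 was higher with the 6 libraries alone, 4 with the length and GC correction and 1 to 3 without single libraries. The causes of these moves were not tested.

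Some small changes turned their sign. CDCA8 in shPALI1 was at 0.003 with quantile normalization, and KIF2C in shPALI1 was at -0.07 to 0.089 without single libraries, with -0.07 without pLKO replicate 3 and -0.013 without shPALI1 replicate 1. In shG9a, AURKB was at 0.059 with TPM, 0.007 with quantile normalization, 0.024 with the length and GC correction and -0.199 to 0.08 without single libraries. There KIF2C was at 0.076 with TPM, 0.023 with quantile normalization and -0.128 to 0.031 without single libraries, and MKI67 was at 0.042 with TPM. CCNB1 between shsuz12 and shJarid2 was at 0.039 with quantile normalization.

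TPM moved the median of all genes by 0.102 in shG9a, 0.114 in shsuz12, 0.136 between shG9a and shJarid2 and 0.143 between shsuz12 and shJarid2. The share of falls among all calls was then 42.2% in shG9a (57.3% as deposited), 47% in shsuz12 (60.9%), 37.7% (51.3%) and 42.7% (57.3%). It was 61.6% (50%) between shPALI1 and shG9a and 55.7% (44.7%) between shPALI1 and shsuz12. Depth limits members of low level in short transcripts most, and no member was at 0.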
